A study of Mus musculus with 21 samples.

Results

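Messenger RNA of a mouse embryonic stem cell line labelled chr8A was compared between the culture media SL2i and SL, over all genes with enough reads. The members were chosen by label: 2 libraries of chr8A cells in SL2i and 3 libraries of chr8A cells in SL, which are 5 of the 21 libraries of the series. The SL2i group was chr8A cells in SL2i, and the SL group was the same line in SL. The name SL was taken to mean serum plus leukemia inhibitory factor (LIF), and SL2i the same medium plus inhibitors of GSK3B and MEK, the pair called 2i. The labels give these media and the line only by short names, so taking chr8A for the control line of a gene-editing experiment rests on usage. All 5 samples shared 48 h of culture, 0.2 mM pyruvate and dialyzed serum at 10%, and the labels name no altered gene for chr8A. The labels say neither whether chr8A was 1 clone or a pool of cells nor how long the SL2i cells had been in 2i before the 48 h. Of 40838 genes in the count table, 17178 had enough reads to be tested.

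Embryonic stem cells are kept pluripotent by LIF, which acts through the receptor gp130 and the transcription factor STAT3. The fibroblast growth factor FGF4, made by the cells themselves, drives the kinases MEK and ERK and moves cells out of the naive state. Inhibition of MEK blocks this route, and inhibition of GSK3B stabilizes beta-catenin, which relieves repression of naive genes by TCF7L1 and activates Wnt target genes. Cells in 2i are known for a uniform naive state, rounded colonies and low DNA methylation, whereas cells in serum and LIF are a mixture of naive and more primed cells.

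The SL2i libraries held 10830504 and 10582011 counted reads, and the SL libraries 23103813 to 25045069, so depth moved with the medium. Genes with at least 10 reads numbered 13777 and 13919 in the SL2i libraries and 16048 to 16547 in the SL libraries. Pluripotency markers summed to 7876 to 8188 counts per 1000000 counted reads (CPM) in SL2i and 6201 to 6491 CPM in SL, with all 12 detected in every library. Of these 12, Nanog, Zfp42, Dppa5a and Alpl rose 2-fold, Utf1, Lin28a and Epcam fell 2-fold, and Dppa5a, at 58.1% shared sequence, had the highest level in SL2i. Fibroblast markers, which would come from feeder cells, summed to 11.7 to 13.4 CPM in SL2i and 50.7 to 54.8 CPM in SL, with 7 of the 9 tested falling 2-fold, and Pdgfrb and Col6a3 rising. Of the 14, 6 had no read in SL2i: Col3a1, Col6a1, Dcn, Postn, Fap and S100a4. Of these, Dcn, Postn and S100a4 were under 1 CPM in SL, and Fap had no read in SL either. Neural markers summed to 58.5 to 62.4 CPM in SL2i and 346 to 356 CPM in SL. Primitive endoderm markers summed to 555 to 564 CPM in SL2i and 406 to 422 CPM in SL, and blood markers to 20.3 to 23.3 CPM in SL2i and 8.73 to 9.81 CPM in SL. Sparc alone had 558.6 and 548 CPM of the endoderm sum in SL2i, and 393.8, 378.5 and 388.5 CPM in SL. Of the 8 endoderm markers tested, 5 fell 2-fold and 1 rose. Nearly all of the blood sum was Cd68, with 23.3 and 20.2 CPM in SL2i, and 8.64, 8.66 and 9.34 CPM in SL. Slc16a1, which encodes the lactate and pyruvate transporter MCT1 and is named in the labels of the clones of the same series, had 157 and 167 CPM in SL2i, against 195, 201 and 198 CPM in SL, a difference of -0.29 ± 0.041 on the log2 scale. The labels do not say that libraries of a group came from separate cultures, so adjusted p values measure the spread between libraries, which may be technical, and medium and library depth cannot be told apart.

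Of 10461 genes with under 5% of their sequence shared with another gene, 7958 differed between SL2i and SL at an adjusted p under 0.05 (76.1%). With so many genes past that threshold, the counts that follow also require a change of at least 2-fold. By that rule 1252 of the 10461 rose in SL2i (12.0%) and 2414 fell (23.1%), and these are the shares against which each gene group is set. At 8-fold or more, 320 genes rose and 871 fell, and at 32-fold or more, 97 rose and 311 fell. These counts use fitted fold changes, which for a gene with no read in 1 medium can exceed the bound its reads give. The retinoic acid hydroxylase gene Cyp26a1, for example, has a fitted log2 fold change of -7.10, whereas its reads give a fall of at least 6.52-fold. Of the 2414 that fell, 178 had no read in either SL2i library, which were the shallower ones, and 5 of those averaged 3 log2 CPM or more over the 5 libraries. Of the 1252 that rose, 39 had no read in the 3 SL libraries, and none of them reached 3 log2 CPM. In bulk RNA, fewer cells that express a gene and less RNA per cell cannot be told apart.

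**Figure D1:**
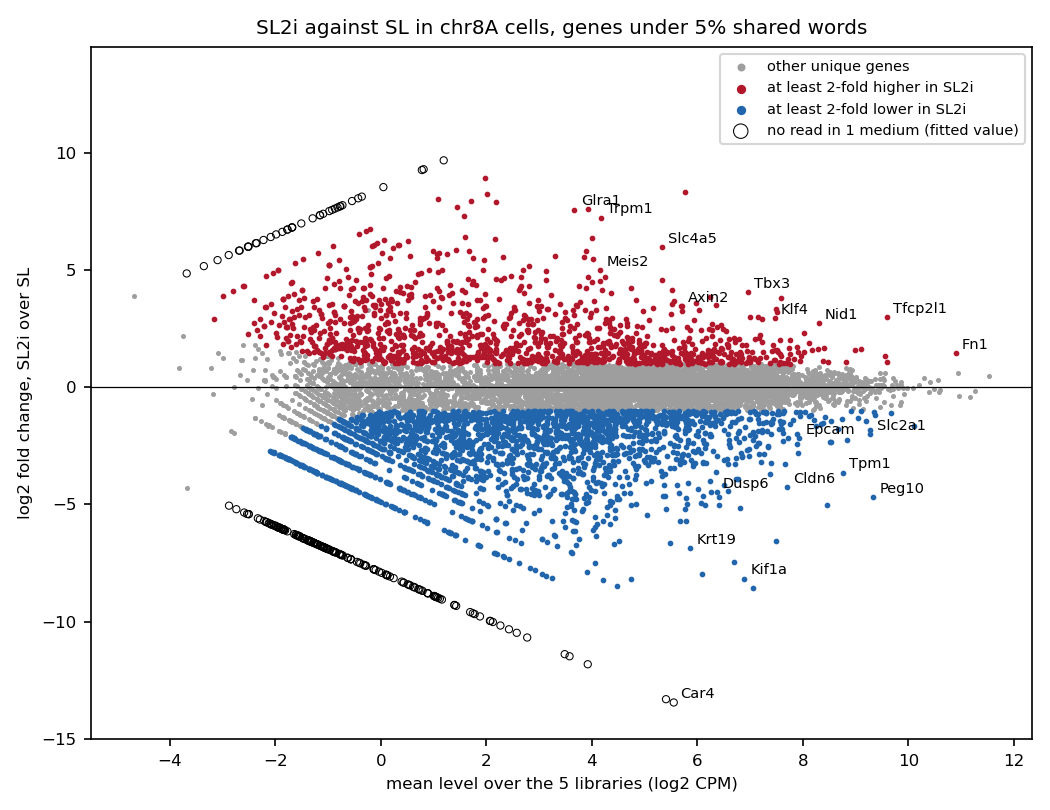
Each point is a gene with under 5% shared sequence, plotted by its mean level over the 5 chr8A libraries (log2 CPM) and its log2 fold change, SL2i over SL. Red points rose and blue points fell at least 2-fold at an adjusted p under 0.05. Open circles mark called genes with no read in 1 medium, at fitted values that can exceed the bound their reads give. By fitted values, open circles included, the 2414 genes that fell reach larger fold changes than the 1252 that rose.

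The FGF ligands and receptors were split by member. Fgf4, the main ligand of these cells, had 349.9 and 337 CPM in SL2i, against 146, 154 and 148 CPM in SL (log2 fold change 1.20 ± 0.035). Both SL2i libraries were above all SL libraries. Fgf5, a ligand that marks the primed epiblast, had 0.0966 and 0 CPM in SL2i, against 9.14, 8.35 and 9.38 CPM in SL. Only 1 read of it was counted in SL2i, which gives a ratio 183-fold (95% interval 32.8 to 7251) lower. Fgf17, of the FGF8 subfamily, had 1.06 and 1.88 CPM in SL2i, against 22.8, 25 and 24.7 CPM in SL (-4.04 ± 0.17). Fgf10, a ligand known for its part in limb and lung budding, stood at a low level and rose, with 8.79 and 9.18 CPM in SL2i, against 0.417, 0.582 and 0.701 CPM in SL (3.96 ± 0.27). Among receptors the change fell on Fgfr2 and was small for Fgfr1, the main receptor of these cells. Fgfr2 had 1.64 and 1.28 CPM in SL2i, against 48.3, 44.7 and 46.1 CPM in SL (-4.98 ± 0.15). Fgfr1 had 122 and 118 CPM in SL2i, against 166, 168 and 175 CPM in SL (-0.50 ± 0.041). Fgfbp1, which frees FGFs from the matrix, had 3.48 and 1.58 CPM in SL2i, against 28.9, 32.1 and 30.4 CPM in SL (-3.58 ± 0.15). Of 20 members with little shared sequence, 4 rose and 8 fell at least 2-fold.

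Genes that report ERK activity mostly fell. None of the 21 members of the list of ERK feedback and immediate early genes rose 2-fold and 14 fell, with a median log2 fold change of -2.33, against -0.09 over all 10461 genes. Spry4, which encodes a feedback inhibitor of receptor tyrosine kinase signalling, had 3.77 and 4.64 CPM in SL2i, against 139.7, 138 and 137 CPM in SL. Dusp6, the cytosolic phosphatase of ERK, had 6.18 and 5.83 CPM in SL2i, against 137, 135 and 127 CPM in SL. Its nuclear relative Dusp4 had 0.966 and 0.494 CPM in SL2i, against 75.4, 71.98 and 73.2 CPM in SL. Every SL library exceeded every SL2i library for these genes by more than an order of magnitude. A further phosphatase, Dusp9, was less affected, with 19.9 and 20.5 CPM in SL2i, against 165, 153 and 173 CPM in SL (-3.02 ± 0.065). The immediate early genes Egr1, with 1.26 and 0.987 CPM in SL2i, against 33.2, 35.4 and 30.6 CPM in SL, and Fosl2, with 0.773 and 0.395 CPM in SL2i, against 34.5, 32.5 and 33.05 CPM in SL, fell by 4.87 ± 0.28 and 5.81 ± 0.19 on the log2 scale. Of the ETS factors induced by FGF, Etv4 fell (-2.78 ± 0.086), with 9.66 and 11.1 CPM in SL2i, against 71.9, 72.95 and 68.4 CPM in SL, while Etv5 rose (0.54 ± 0.033, 30.6% shared sequence), with 374 and 379.5 CPM in SL2i, against 274, 259.6 and 246 CPM in SL.

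Several Wnt targets and feedback genes rose, while several ligands and secreted or membrane components fell. Of 24 members of the Wnt list, 8 rose and 7 fell 2-fold. Axin2, the feedback scaffold of the beta-catenin destruction complex, had 122 and 108 CPM in SL2i, against 10.6, 10.8 and 10.4 CPM in SL (3.44 ± 0.072). Cdx1, a caudal homeobox gene and Wnt target, had 37.3 and 32.4 CPM in SL2i, against 0.793, 0.738 and 0.662 CPM in SL (5.57 ± 0.16). Notum, a secreted deacylase that inactivates Wnt ligands, had 90.9 and 88.6 CPM in SL2i, against 5.30, 5.98 and 7.28 CPM in SL (3.85 ± 0.083, 33.2% shared). Sp5, a zinc finger gene directly activated by beta-catenin, had 26.6 and 27.8 CPM in SL2i, against 2.30, 2.56 and 3.39 CPM in SL (3.30 ± 0.14). These genes were at low levels in SL and none of their libraries overlapped between media. Sfrp1, a secreted Wnt antagonist, had 381 and 398 CPM in SL2i, against 37.8, 39.7 and 38.4 CPM in SL (3.33 ± 0.043), whereas its relative Sfrp2 had 2.80 and 3.36 CPM in SL2i, against 41.8, 41.5 and 40.9 CPM in SL (-3.75 ± 0.13, 13.8% shared). The receptors also went apart: Fzd10 had 71.5 and 68.6 CPM in SL2i, against 10.4, 9.55 and 9.03 CPM in SL (2.86 ± 0.079), and Fzd7 had 53.2 and 55.7 CPM in SL2i, against 198, 200.5 and 199.5 CPM in SL (-1.87 ± 0.047). The ligand gene Wnt7b had 0.193 and 0.494 CPM in SL2i, against 27.9, 26.8 and 29.2 CPM in SL (-6.32 ± 0.23). Among transcripts of the intracellular relay, those of Ctnnb1, Tcf7l1 and Gsk3b changed little or not detectably. Ctnnb1, encoding beta-catenin, had 964 and 981 CPM in SL2i, against 983, 976 and 989 CPM in SL (-0.01 ± 0.031, adjusted p = 0.690, 13.2% shared). Tcf7l1 had 128 and 143 CPM in SL2i, against 134, 143 and 132 CPM in SL (-0.004 ± 0.049, adjusted p = 0.940). Gsk3b, the gene of the inhibited kinase, had 106 and 123 CPM in SL2i, against 101, 101 and 101 CPM in SL (0.18 ± 0.047), and the call was lost without SL2i replicate 2 (0.04, adjusted p = 0.518).

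The promoter of Sp5 is shown because it holds the Wnt response letters searched for, CTTTGA, the core bound by TCF and LEF factors, on the printed strand at both marked places. The stretch runs from 250 bases before to 50 bases after the RefSeq start on the plus strand, at chr2:70474673-70474972 of GRCm38.p6.
Sp5: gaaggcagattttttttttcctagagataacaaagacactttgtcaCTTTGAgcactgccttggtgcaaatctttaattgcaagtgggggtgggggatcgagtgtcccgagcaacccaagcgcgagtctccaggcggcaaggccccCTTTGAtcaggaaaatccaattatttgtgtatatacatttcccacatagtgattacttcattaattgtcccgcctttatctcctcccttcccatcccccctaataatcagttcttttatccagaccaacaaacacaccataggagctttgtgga
Capitals mark CTTTGA, searched on both strands. It occurs in the promoters of 18.2% of 27025 annotated genes, in 14.1% of the 8234 tested genes with a promoter sequence, in 18.2% of those that rose 2-fold and in 12.5% of those that fell. A match is a description of the letters and does not mark a site used in these cells.

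The naive transcription factors rose as a group, with 10 of 13 members at least 2-fold higher, none 2-fold lower and a median of 1.68. Tfcp2l1, a factor downstream of both LIF and 2i, had 1571 and 1682 CPM in SL2i, against 208, 204 and 208 CPM in SL. Klf4 had 362 and 378 CPM in SL2i, against 47.8, 49.97 and 46.95 CPM in SL, and its relative Klf2 had 367 and 364 CPM in SL2i, against 110.4, 121 and 111 CPM in SL. Tbx3 had 259.8 and 308 CPM in SL2i, against 18.4, 16.1 and 17.1 CPM in SL (4.04 ± 0.055), the largest fold change in this group. Prdm14, which restrains FGF signalling and de novo methylation, had 67.2 and 61.3 CPM in SL2i, against 5.14, 4.04 and 5.61 CPM in SL (3.71 ± 0.093). Nr5a2, an orphan nuclear receptor, had 149.7 and 154 CPM in SL2i, against 27.1, 28.6 and 27.4 CPM in SL (2.45 ± 0.051). No library overlapped between media for these 6 genes, and the means were at least 3-fold apart. Of the core factors, Pou5f1 and Sox2 moved less. Pou5f1 had 1345 and 1281 CPM in SL2i, against 1018, 1039 and 969 CPM in SL (0.38 ± 0.031, 14.7% shared). Sox2 had 567 and 596 CPM in SL2i, against 485, 473 and 449 CPM in SL (0.31 ± 0.033). Nanog rose further, with 1199 and 1159 CPM in SL2i, against 269, 275 and 259 CPM in SL (2.14 ± 0.031, 11.1% shared). Dppa3, a naive and germline marker with 30.4% shared sequence, went the other way, with 31.8 and 31.2 CPM in SL2i, against 112, 112 and 102 CPM in SL (-1.78 ± 0.063).

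Formative and primed epiblast genes fell, 10 of 13 with little shared sequence by at least 2-fold and none rising that far, with a median of -2.68. Otx2 had 5.32 and 4.44 CPM in SL2i, against 30.98, 29.7 and 33.2 CPM in SL (-2.68 ± 0.12). Pou3f1, the POU factor also called OCT6, had 2.90 and 1.78 CPM in SL2i, against 113, 109.5 and 106 CPM in SL (-5.54 ± 0.11, 8.27% shared). Grhl2, which drives the epithelial programme of the formative state, had 4.45 and 4.25 CPM in SL2i, against 79.9, 78.7 and 78.9 CPM in SL (-4.18 ± 0.099). The media did not overlap for any of these 3. Sox11 had 17.97 and 14.7 CPM in SL2i, against 143, 136 and 142 CPM in SL (-3.10 ± 0.068). Car4, a membrane carbonic anhydrase, had no read in either SL2i library, and 80.3, 77.1 and 77.3 CPM in SL, which is at least 534-fold lower. By contrast Cdh2, the neural cadherin, differed by only -0.36 ± 0.12, which did not pass without SL2i replicate 2 (adjusted p = 0.0988).

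**Figure D2:**
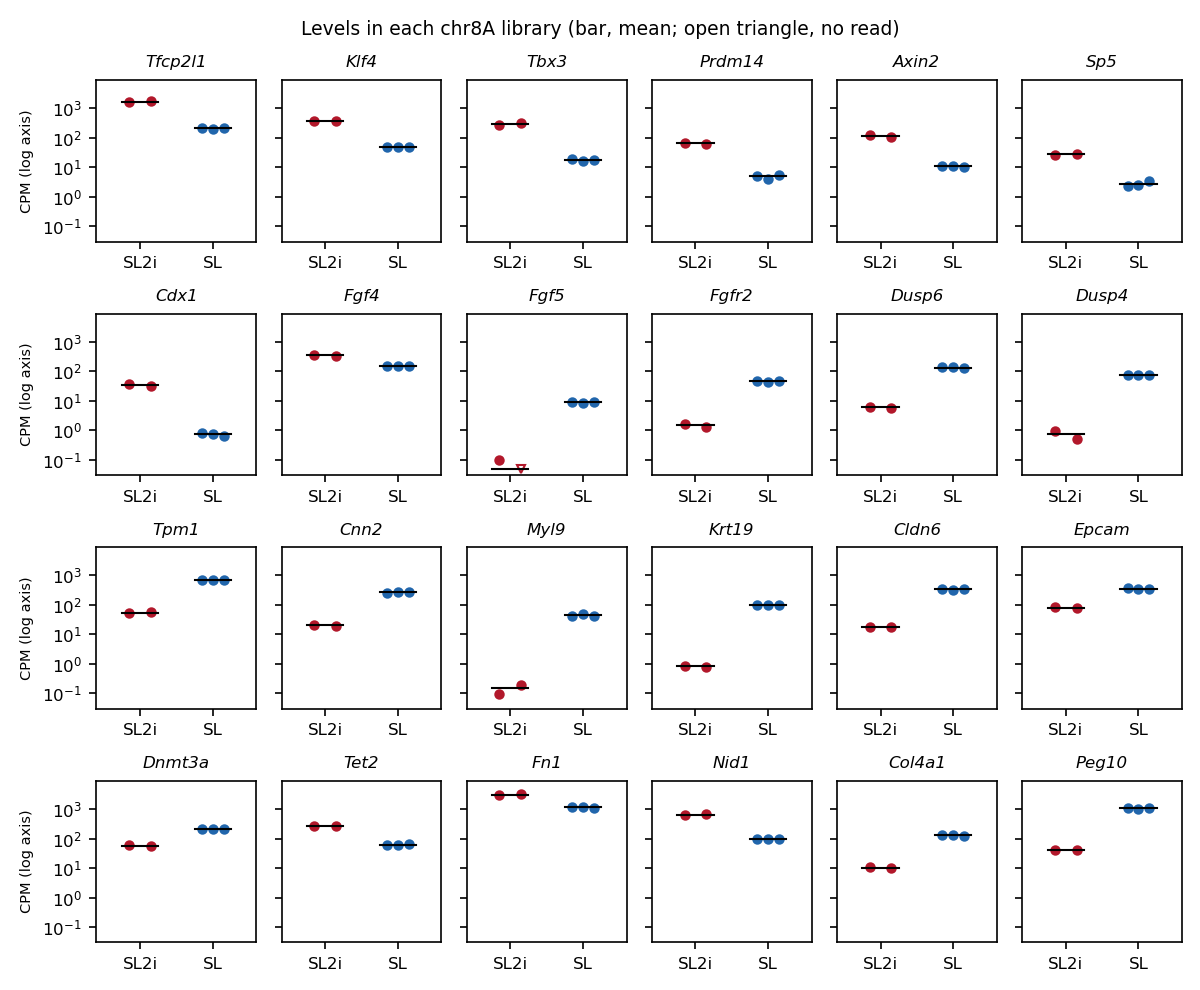
Level of 24 genes in each chr8A library, as CPM on a log axis, with SL2i at the left and SL at the right of each panel. Points are libraries, bars are means and the open triangle marks a library with no read of Fgf5; naive and Wnt genes are higher in SL2i, and FGF receptor, ERK, actin, keratin and junction genes are lower.

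The LIF pathway was not higher throughout. Apart from Klf4 and Tfcp2l1, which are also naive factors, none of its 15 members rose 2-fold, 3 fell, and the median was 0.06. Stat3 had 102 and 104 CPM in SL2i, against 81.05, 85.3 and 83.9 CPM in SL (0.31 ± 0.046), and the receptor gene Lifr had 67.6 and 77.4 CPM in SL2i, against 53.4, 50.7 and 55.9 CPM in SL (0.44 ± 0.067). Socs3, the feedback inhibitor and best known STAT3 target, had 125 and 131 CPM in SL2i, against 124, 119.5 and 125 CPM in SL (0.06 ± 0.043, adjusted p = 0.214). The Pim kinases all fell: Pim2 had 11.02 and 12.2 CPM in SL2i, against 174, 179 and 172 CPM in SL (-3.91 ± 0.065), Pim3 had 96.9 and 89.95 CPM in SL2i, against 208, 192 and 205 CPM in SL (-1.11 ± 0.045), and Pim1, with 11.8% shared sequence, differed by -0.99 ± 0.037.

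Nodal, BMP, Notch, hedgehog and retinoid genes moved member by member. Of the Nodal and activin list, 2 of 15 rose and 4 fell, near the shares over all genes. The ligand gene Nodal had 114 and 107 CPM in SL2i, against 56.5, 59.2 and 57.7 CPM in SL (0.93 ± 0.050), and its convertase gene Pcsk6 had 109.7 and 109 CPM in SL2i, against 40.5, 38.4 and 40.9 CPM in SL (1.45 ± 0.052). The Nodal antagonists diverged: Lefty1 had 25.3 and 24.98 CPM in SL2i, against 193, 197 and 207 CPM in SL (-2.99 ± 0.058, 26.3% shared), and Lefty2 had 312 and 315 CPM in SL2i, against 117, 119 and 122 CPM in SL (1.40 ± 0.038, 18.9% shared). As these are close copies of each other, reads may have been split between them. Fst, the activin antagonist, had 20.4 and 21.3 CPM in SL2i, against 4.72, 4.70 and 3.70 CPM in SL (2.25 ± 0.13).

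The Id genes, inhibitors of basic helix-loop-helix factors induced by BMP, showed the same divergence. Id1 had 4.83 and 4.15 CPM in SL2i, against 43.3, 43.5 and 41.7 CPM in SL (-3.25 ± 0.13), and Id2 had 9.28 and 8.98 CPM in SL2i, against 81.2, 78.6 and 83.03 CPM in SL (-3.15 ± 0.085). Id3 fell less, with 6.57 and 7.60 CPM in SL2i, against 16.8, 18.01 and 19.3 CPM in SL (-1.35 ± 0.12). Id4 rose, with 20.2 and 16.98 CPM in SL2i, against 4.93, 5.32 and 2.96 CPM in SL (2.08 ± 0.15). Over the BMP and Id list, 3 of 18 rose and 5 fell. The ligand gene Bmp4 was at a low level in both media, with 10.3 and 12.5 CPM in SL2i, against 15.9, 16.4 and 14.6 CPM in SL (-0.45 ± 0.12, adjusted p = 0.0542 without SL2i replicate 1).

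Of the 22 genes of the Notch, Hippo and hedgehog list, 4 rose and 11 fell, a larger share lower than the 23.1% over all genes. Jag2, a Notch ligand, had 10.7 and 9.78 CPM in SL2i, against 98.1, 94.8 and 98.4 CPM in SL (-3.24 ± 0.080), and Lfng, which modifies Notch receptors, had 0.676 and 0.494 CPM in SL2i, against 23.3, 20.9 and 24.9 CPM in SL (-5.28 ± 0.22). Ccn1, a target of the Hippo effector YAP and of SRF, had 23.1 and 22.3 CPM in SL2i, against 181, 172 and 175 CPM in SL (-2.95 ± 0.060). In the hedgehog pathway the signal transducer Smo had 17.01 and 17.5 CPM in SL2i, against 90.6, 86.4 and 89.9 CPM in SL (-2.37 ± 0.071), the receptor Ptch1 had 75.9 and 78.5 CPM in SL2i, against 233, 219 and 232 CPM in SL (-1.56 ± 0.045), and the effector and target Gli1 had 3.48 and 4.54 CPM in SL2i, against 61, 57.9 and 65.3 CPM in SL (-3.94 ± 0.11, 5.35% shared). Gli2, a further effector, rose, with 90.3 and 100.2 CPM in SL2i, against 23.9, 26.5 and 25.3 CPM in SL (1.92 ± 0.062). Retinoid genes fell in 6 of 14 cases and rose in 2. The retinoic acid carrier Crabp2 had 1.16 and 1.48 CPM in SL2i, against 13.8, 16.7 and 14.1 CPM in SL (-3.49 ± 0.21). The receptor Rarg had 52.9 and 54.8 CPM in SL2i, against 113, 128 and 119 CPM in SL (-1.16 ± 0.053), and Rara, its relative, differed little (-0.20 ± 0.070), with adjusted p = 0.0548 without SL replicate 2 and 0.066 without SL2i replicate 2. Cyp26a1, the retinoic acid hydroxylase, had no read in SL2i and 72 reads in SL, at least 6.52-fold lower.

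Genes of de novo DNA methylation fell, while Dnmt1 and Tet2 rose. The de novo methyltransferase Dnmt3a had 58.9 and 54.1 CPM in SL2i, against 215, 218 and 206 CPM in SL (-1.92 ± 0.047). Dnmt3b had 148 and 151 CPM in SL2i, against 1100, 1150 and 1119 CPM in SL (-2.91 ± 0.037, 13.7% shared), and the cofactor gene Dnmt3l had 158 and 157 CPM in SL2i, against 463, 459 and 435 CPM in SL (-1.52 ± 0.037). These 3 fell in every SL2i library relative to every SL library. On the maintenance side, Dnmt1 had 484 and 492 CPM in SL2i, against 366, 369 and 370.1 CPM in SL (0.41 ± 0.031), and Uhrf1, which brings DNMT1 to replicated DNA, had 978 and 990.2 CPM in SL2i, against 342, 344 and 350.2 CPM in SL (1.51 ± 0.030, 24.9% shared). Tet2, a dioxygenase that oxidizes methylcytosine, had 260.2 and 270.0 CPM in SL2i, against 61.9, 60.5 and 64.8 CPM in SL (2.09 ± 0.042). Zfp57, which protects methylation at imprinted loci, had 483 and 484 CPM in SL2i, against 158, 163 and 159.7 CPM in SL (1.59 ± 0.032). The list as a whole had 3 of 15 genes rise and 3 fall.

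Germline genes, many of which have promoters that are methylated in other cells, did not rise as a group: 4 of 32 rose, 13 fell and the median was -0.60. Kit, the receptor tyrosine kinase of germ cells, had 291 and 305 CPM in SL2i, against 39.5, 35.99 and 37.95 CPM in SL (2.98 ± 0.043). Dazl, an RNA-binding protein gene of germ cells, had 13.2 and 12.3 CPM in SL2i, against 7.81, 5.71 and 6.89 CPM in SL (0.91 ± 0.14). Ddx4, the germ cell RNA helicase, had 9.18 and 4.54 CPM in SL2i, against 30.2, 27.1 and 26.4 CPM in SL (-2.02 ± 0.13), and Tdrd5, of the piRNA pathway, had 0.870 and 0.296 CPM in SL2i, against 20.3, 19.6 and 19.5 CPM in SL (-5.06 ± 0.23). Rhox5, an X-linked homeobox gene, had 14.9 and 13.5 CPM in SL2i, against 16.99, 16.4 and 19.7 CPM in SL (-0.32 ± 0.11, adjusted p = 0.0833 without SL2i replicate 2). Genes of the state that resembles the 2-cell embryo were counted apart, since 10 of 11 tested members have close copies. Of 20 listed genes these 11 had enough reads, and those near 0 in SL passed the filter through SL2i. All 10 were higher in SL2i, against 40.9% of the 5457 genes with copies, and at low levels: Zscan4a, a member of the Zscan4 cluster, had 7.05 and 5.23 CPM in SL2i, against 0, 0 and 0.0389 CPM in SL. With 22.7% to 95.5% shared sequence, part of their reads may come from copies, and most so for members near the upper end. The remaining member, Pramel13, has no shared sequence and had 97.4 and 94.6 CPM in SL2i, against 42.3, 44.4 and 43.2 CPM in SL (1.15 ± 0.057).

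Polycomb and histone methylation enzymes changed little as groups, with medians of 0.01 over 20 genes and 0.08 over 27. Of the Polycomb genes 3 rose and 4 fell 2-fold, and of the histone enzymes 2 rose and 2 fell. Ezh2, the catalytic subunit of PRC2, had 145 and 159 CPM in SL2i, against 170.5, 173 and 166 CPM in SL (-0.16 ± 0.039). Its partners differed: Epop had 386 and 396 CPM in SL2i, against 133, 139.9 and 138 CPM in SL (1.51 ± 0.034), and Phf19 had 1.16 and 0.889 CPM in SL2i, against 14.9, 15.3 and 14.5 CPM in SL (-3.85 ± 0.22). Phc1 of PRC1 had 279 and 274 CPM in SL2i, against 687, 698 and 700.2 CPM in SL (-1.33 ± 0.033), and Pcgf5 had 10.2 and 11.3 CPM in SL2i, against 43.4, 43.4 and 43.7 CPM in SL (-2.02 ± 0.095). Among the histone enzymes, the demethylase gene Kdm3a, also a hypoxia target, had 304 and 298 CPM in SL2i, against 120.0, 119 and 116 CPM in SL (1.35 ± 0.035), and the methyltransferase gene Setd7 had 17.2 and 13.4 CPM in SL2i, against 148, 152 and 149 CPM in SL (-3.29 ± 0.067).

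Hox genes were close to 0 in SL and rose in SL2i. Only 13 of the 38 listed had enough reads to be tested. Of the 10 with little shared sequence, 8 rose at least 2-fold and none fell. Hoxc13 had 14.3 and 13.5 CPM in SL2i, against 1.25, 1.51 and 2.10 CPM in SL (3.09 ± 0.18), and Hoxb13 had 3.58 and 4.54 CPM in SL2i, against 0.209, 0 and 0.195 CPM in SL (4.86 ± 0.48). Hoxc12 had 7.34 and 8.98 CPM in SL2i, against 0.0418, 0.0388 and 0 CPM in SL, from 167 reads in SL2i and 2 in SL, a ratio 308-fold (95% interval 83.8 to 2560) higher. Hoxc4 had 5.12 and 4.74 CPM in SL2i, against 0.251, 0.311 and 0.273 CPM in SL (4.11 ± 0.36), and Hoxc9 had 14 reads in SL2i and none in SL, at least 17.2-fold higher. These are low levels, and 25 of the 38 genes did not pass the filter on reads; a gene near 0 in SL passed it through the SL2i libraries where it was higher.

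Markers of the first lineages went both ways. Among neural regulators 4 of 12 rose and 5 fell. Nes, encoding the intermediate filament nestin, had 29.1 and 31.6 CPM in SL2i, against 229.5, 216 and 215 CPM in SL (-2.86 ± 0.053), and the neuronal tubulin Tubb3 had 21.1 and 21.2 CPM in SL2i, against 97.8, 102 and 103 CPM in SL (-2.25 ± 0.065). The neural adhesion gene Ncam1 had 18.4 and 21.8 CPM in SL2i, against 6.51, 8.54 and 7.05 CPM in SL (1.44 ± 0.12). In the mesoderm list 4 of 16 rose and 6 fell, with Meis2, a homeobox gene, at 40.9 and 44.2 CPM in SL2i, against 1.59, 1.32 and 1.13 CPM in SL (4.98 ± 0.13), and Zeb1, a repressor of epithelial genes, at 36.8 and 43.5 CPM in SL2i, against 6.26, 5.59 and 4.36 CPM in SL (2.89 ± 0.11). Of the primitive endoderm list 4 of 17 rose and 8 fell. Its regulators stayed low in both media: Gata6 had 0.483 and 0.494 CPM in SL2i, against 0.710, 0.738 and 1.09 CPM in SL (-0.79 ± 0.56, adjusted p = 0.200), and Gata4 had 2.22 and 2.17 CPM in SL2i, against 5.22, 4.31 and 4.24 CPM in SL (-1.06 ± 0.24). Dab2, an endocytic adaptor of that lineage, had 1.35 and 1.28 CPM in SL2i, against 17.7, 16.2 and 15.7 CPM in SL (-3.64 ± 0.21). In the trophoblast and simple epithelium list 3 of 13 rose and 6 fell. The regulator Tfap2a had 38.2 and 35.5 CPM in SL2i, against 1.04, 0.854 and 1.36 CPM in SL (5.07 ± 0.14, 12.9% shared). The keratins fell: Krt19 had 0.870 and 0.790 CPM in SL2i, against 95.5, 97.7 and 96.7 CPM in SL (-6.85 ± 0.14), Krt18 had 3.96 and 4.84 CPM in SL2i, against 318, 318 and 304 CPM in SL (-6.15 ± 0.091, 12.4% shared), and Krt7 had 2 reads in SL2i, a ratio 317-fold (95% interval 87.6 to 2619) lower. Peg10, an imprinted gene derived from a retrotransposon, had 41.5 and 39.7 CPM in SL2i, against 1092, 997 and 1066 CPM in SL (-4.69 ± 0.047).

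**Figure D3:**
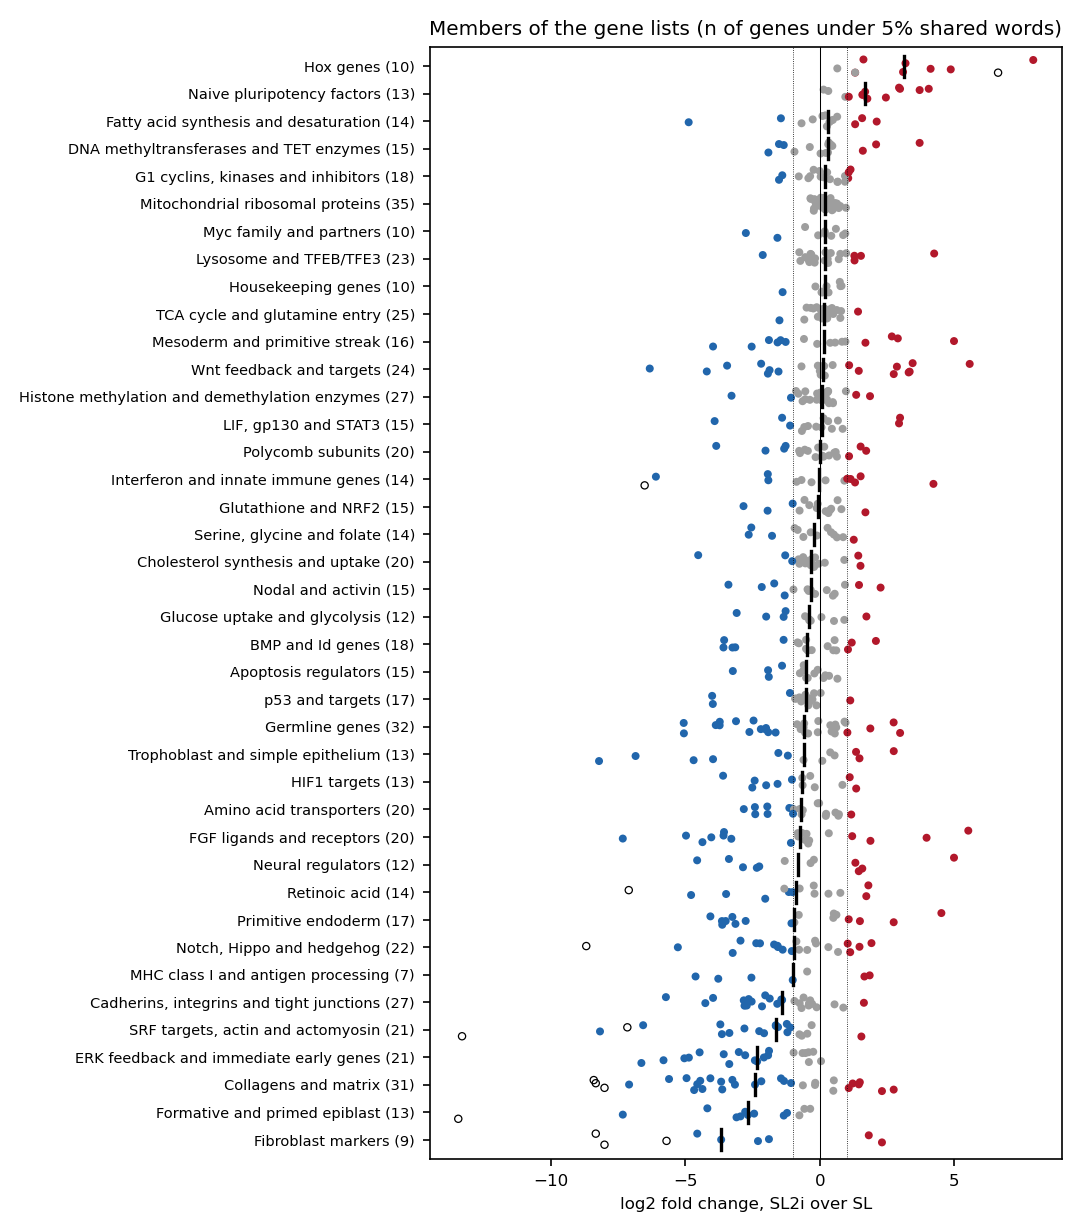
Log2 fold change, SL2i over SL, of each member with under 5% shared sequence in 40 gene lists, with the number of members beside the list name. Red and blue points rose or fell at least 2-fold at an adjusted p under 0.05, gray points did not pass that rule, open circles had no read in 1 medium, and vertical bars are medians, from 3.13 for Hox genes to -3.67 for fibroblast markers, or -2.30 with open circles set to their bound. The Hox median covers 10 of 38 listed genes, and those near 0 in SL passed the filter on reads through SL2i, which favours genes that are higher there.

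Genes of the actin cytoskeleton and targets of serum response factor (SRF), which is activated by ERK and by actin polymerization, fell, 16 of 21 by at least 2-fold and 1 rising, with a median of -1.64. Tpm1, a tropomyosin, had 54.2 and 55.99 CPM in SL2i, against 693, 682 and 689 CPM in SL (-3.64 ± 0.043). Cnn2, a calponin, had 21.2 and 19.4 CPM in SL2i, against 260.0, 269 and 263 CPM in SL (-3.70 ± 0.058), and its smooth muscle relative Cnn1 had 0.676 and 0.0987 CPM in SL2i, against 36.8, 40.3 and 36.2 CPM in SL (-6.57 ± 0.21). Zyx, the focal adhesion protein zyxin, had 8.99 and 9.28 CPM in SL2i, against 95.5, 96.9 and 90.1 CPM in SL (-3.37 ± 0.080). Smooth muscle actin, Acta2, had no read in SL2i and 71.7, 71.8 and 68.6 CPM in SL, at least 482-fold lower. Myl9, a regulatory light chain of myosin, had 3 reads in SL2i and 43.3, 47.6 and 41.96 CPM in SL, a ratio 302-fold (95% interval 103 to 1468) lower. Fibroblast markers had a lower sum in the same SL2i libraries, with 7 of 9 tested falling and 2 rising, and their part in the fall of the actin genes was not tested.

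The promoters of Myl9 and Cnn2 are shown because each holds a CArG box, the sequence that SRF binds, within 250 bases of the start. Both are on the plus strand of GRCm38.p6, at chr2:156775214-156775513 and chr10:79988350-79988649, with RefSeq sequences and the CArG box in capitals.
Myl9: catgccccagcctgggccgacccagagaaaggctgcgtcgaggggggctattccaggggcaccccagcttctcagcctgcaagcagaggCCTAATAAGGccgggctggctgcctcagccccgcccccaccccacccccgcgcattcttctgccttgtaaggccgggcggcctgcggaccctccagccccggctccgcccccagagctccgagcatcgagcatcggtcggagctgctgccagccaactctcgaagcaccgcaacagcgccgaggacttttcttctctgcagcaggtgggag
Cnn2: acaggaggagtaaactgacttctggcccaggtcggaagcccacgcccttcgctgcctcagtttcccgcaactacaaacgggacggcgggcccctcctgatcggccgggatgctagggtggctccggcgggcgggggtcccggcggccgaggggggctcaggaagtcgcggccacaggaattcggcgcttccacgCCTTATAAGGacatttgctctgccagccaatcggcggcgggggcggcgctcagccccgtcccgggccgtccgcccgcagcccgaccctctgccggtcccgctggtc
The CArG box was searched on both strands with A or T at all 6 inner places. It is found in the promoters of 1.81% of 27025 genes, 1.56% of the 8234 tested genes, 1.48% of those that rose 2-fold and 2.05% of those that fell.

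Genes of cell contacts and matrix mostly fell. Of 27 cadherin, integrin and tight junction genes, 15 fell and 1 rose. Cldn6 had 17.5 and 17.5 CPM in SL2i, against 333, 332 and 339.7 CPM in SL (-4.26 ± 0.056), and Cldn7 had 1.55 and 1.88 CPM in SL2i, against 92.3, 92.4 and 87.5 CPM in SL (-5.72 ± 0.12), both claudins of tight junctions. Epcam, an epithelial adhesion protein, had 81.8 and 76.9 CPM in SL2i, against 361, 359 and 339 CPM in SL (-2.15 ± 0.041). Cdh1, the main cadherin of these cells, differed by -0.75 ± 0.032, with 562 and 592 CPM in SL2i, against 978, 982 and 959 CPM in SL. Itga3, a laminin-binding integrin, had 52.9 and 52.5 CPM in SL2i, against 377, 363 and 363 CPM in SL (-2.80 ± 0.044). In the collagen and matrix list 20 of 31 fell and 6 rose. The basement membrane collagen genes Col4a1 and Col4a2 fell: Col4a1 had 10.7 and 10.1 CPM in SL2i, against 132, 129.9 and 125 CPM in SL (-3.63 ± 0.078). Their neighbours in the basement membrane diverged, with the laminin chain Lamb1 at 31.4 and 34.6 CPM in SL2i, against 317, 313 and 313 CPM in SL (-3.25 ± 0.050), and Lamc1 at 1109 and 1140 CPM in SL2i, against 539, 537 and 532 CPM in SL (1.07 ± 0.030). Nid1, which links laminin to collagen IV, had 625 and 664 CPM in SL2i, against 97.1, 96.9 and 95.2 CPM in SL (2.74 ± 0.034). Fn1, fibronectin, had 2981 and 3169 CPM in SL2i, against 1136, 1157 and 1099 CPM in SL (1.44 ± 0.031).

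Cell cycle, p53 and apoptosis genes had few 2-fold changes. Of 18 G1 regulators 3 rose and 2 fell. The inhibitor gene Cdkn1a, encoding p21, had 276 and 252 CPM in SL2i, against 60.6, 56.8 and 54.2 CPM in SL (2.21 ± 0.043, 9.87% shared). Cdkn1c, an imprinted inhibitor encoding p57, had 2.90 and 1.98 CPM in SL2i, against 69.1, 74.2 and 70.2 CPM in SL (-4.86 ± 0.12, 27.3% shared). Cdkn1b, encoding p27, had 53.05 and 54.7 CPM in SL2i, against 50.7, 54.4 and 53.5 CPM in SL, and the libraries of the media overlapped (0.03 ± 0.061, adjusted p = 0.700). Ccnd1, a cyclin induced by growth factors, differed by -0.80 ± 0.041 (22.3% shared). Of 10 genes of the Myc family and its partners none rose 2-fold and 2 fell: Myc had 7.63 and 9.18 CPM in SL2i, against 58.7, 56.2 and 55.2 CPM in SL (-2.75 ± 0.092), and Mycn had 93.8 and 102 CPM in SL2i, against 289, 306 and 285 CPM in SL (-1.58 ± 0.042). Among p53 targets, 1 of 17 rose and 3 fell, with Perp, a desmosomal protein, at 7.05 and 8.29 CPM in SL2i, against 129, 121 and 114 CPM in SL (-3.98 ± 0.084). Trp53 itself had 469 and 481 CPM in SL2i, against 361, 362 and 377 CPM in SL (0.37 ± 0.032, 10.6% shared). Of the apoptosis regulators none of 15 rose 2-fold and 4 fell. Bcl2l11, encoding the death protein BIM that ERK marks for degradation, had 10.9 and 12.7 CPM in SL2i, against 109, 111 and 114 CPM in SL (-3.24 ± 0.075).

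Immune genes had opposite changes within each list. Of the MHC class I list, 2 of 7 rose and 4 fell by 2-fold. H2-K1 had 18.1 and 16.2 CPM in SL2i, against 56.9, 54.1 and 58.3 CPM in SL (-1.72 ± 0.081, 24.01% shared), and the peptide transporter gene Tap1 had 2.80 and 3.36 CPM in SL2i, against 19.5, 16.9 and 17.6 CPM in SL (-2.55 ± 0.16). H2-Eb1, an MHC class II chain, was instead among the genes with the largest rise, with 33.4 and 29.5 CPM in SL2i, against 1.96, 1.59 and 1.21 CPM in SL (4.31 ± 0.14). In the interferon and innate list 5 of 14 rose and 4 fell. Sting1, the sensor of cyclic dinucleotides, had 16.9 and 11.9 CPM in SL2i, against 0.710, 0.699 and 0.895 CPM in SL (4.22 ± 0.22), and Mavs, the adaptor of RNA sensors, had 71.2 and 70.3 CPM in SL2i, against 24.01, 25.7 and 24.7 CPM in SL (1.51 ± 0.068). Bst2, encoding tetherin, had 26.7 and 25.8 CPM in SL2i, against 100.3, 99.3 and 102 CPM in SL (-1.94 ± 0.062). Xaf1, an interferon-induced gene, had 39.5 and 39 CPM in SL2i, against 1.21, 0.505 and 0.934 CPM in SL (5.47 ± 0.15).

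Several metabolic genes of the hypoxia response fell, and glycolytic genes differed by member. Of 13 HIF1 targets 6 fell and 2 rose, and of 12 genes of glucose uptake and glycolysis 4 fell and 1 rose. Slc2a1, the glucose transporter GLUT1, had 222 and 223 CPM in SL2i, against 890.4, 871 and 905 CPM in SL (-1.998 ± 0.037). Slc16a3, the lactate exporter MCT4, had 24.6 and 29.3 CPM in SL2i, against 139.5, 146 and 149 CPM in SL (-2.43 ± 0.062), and Pdk1, which inhibits pyruvate dehydrogenase, had 42.2 and 42.1 CPM in SL2i, against 241, 244 and 238 CPM in SL (-2.51 ± 0.048). Slc2a3, the other main glucose transporter, differed by less (-0.39 ± 0.031), with 1699 and 1648 CPM in SL2i, against 2243, 2095 and 2226 CPM in SL. Pfkfb3, which makes the activator of phosphofructokinase, had 5.12 and 6.42 CPM in SL2i, against 51.6, 49.2 and 47.1 CPM in SL (-3.09 ± 0.11). For the hexokinases, Hk1 had 164 and 165 CPM in SL2i, against 48.6, 48.5 and 51.5 CPM in SL (1.73 ± 0.046), and Hk2 had overlapping values, 391 and 429 CPM in SL2i, against 395, 403 and 386 CPM in SL (0.06 ± 0.034, adjusted p = 0.132, and 0.022 without SL2i replicate 1).

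In mitochondria, 1 of 25 genes of the citric acid cycle and glutamine list rose and 1 fell. Idh2, the mitochondrial NADP isocitrate dehydrogenase, had 316 and 290.0 CPM in SL2i, against 110.3, 112 and 118 CPM in SL (1.42 ± 0.037). None of the 35 mitochondrial ribosomal protein genes with little shared sequence changed 2-fold. Of 14 fatty acid genes 3 rose and 2 fell. Among them were Cpt1a, the gate of fatty acid import into mitochondria, with 124 and 141 CPM in SL2i, against 31.7, 30.3 and 30.2 CPM in SL (2.11 ± 0.054), and Acacb, with 57.1 and 56.9 CPM in SL2i, against 22.4, 23.7 and 22.97 CPM in SL (1.31 ± 0.069). Fasn, fatty acid synthase, was close to level, with 837 and 874 CPM in SL2i, against 790.0, 790.2 and 826 CPM in SL (0.09 ± 0.031), and its call was lost without any of 3 libraries (adjusted p = 0.0588 without SL replicate 1, 0.0698 without SL replicate 2 and 0.351 without SL2i replicate 2). Of 20 cholesterol genes 2 rose and 3 fell.

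Amino acid transporters fell in 8 of 20 cases and rose in 1. Slc7a11, the cystine importer, had 5.80 and 4.64 CPM in SL2i, against 19.5, 20.5 and 20.4 CPM in SL (-1.95 ± 0.14), and Slc1a3, a glutamate transporter, had 5.32 and 7.50 CPM in SL2i, against 44.9, 45.2 and 46.4 CPM in SL (-2.83 ± 0.11). Serine, glycine and folate genes fell in 3 of 14 cases and rose in 1. Gldc, the glycine decarboxylase, had 166 and 165 CPM in SL2i, against 568, 578 and 559 CPM in SL (-1.78 ± 0.035). Tdh, threonine dehydrogenase, which mouse stem cells depend on, had 433 and 433 CPM in SL2i, against 112, 104 and 100.3 CPM in SL (2.04 ± 0.036, 17.7% shared), and Asns, asparagine synthetase, had 1150 and 1203 CPM in SL2i, against 479, 487 and 457 CPM in SL (1.31 ± 0.032). Of 15 glutathione and NRF2 genes 1 rose and 3 fell. Nqo1, an NRF2 target, had 87.5 and 94.9 CPM in SL2i, against 27.1, 31.2 and 26.4 CPM in SL (1.69 ± 0.060), and Gpx3, the plasma glutathione peroxidase, had 4.83 and 4.64 CPM in SL2i, against 34.7, 31.8 and 35.5 CPM in SL (-2.84 ± 0.13). Lysosomal genes included 4 of 23 that rose and 1 that fell. Mitf, a regulator of the TFEB family, had 64.5 and 59.9 CPM in SL2i, against 3.67, 3.07 and 3.11 CPM in SL (4.25 ± 0.10), and Tfeb had 36.4 and 39.2 CPM in SL2i, against 14.4, 16.4 and 15.7 CPM in SL (1.29 ± 0.084), whereas Tfe3 had 90.1 and 98.2 CPM in SL2i, against 156, 165 and 159 CPM in SL (-0.77 ± 0.045).

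The largest rises among genes averaging 3 log2 CPM or more came from genes of many kinds. Glra1, a glycine receptor subunit, had 35.4 and 27.9 CPM in SL2i, against 0.167, 0.233 and 0.0779 CPM in SL. Trpm1, a cation channel of the retina and pigment cells, had 44.8 and 44.6 CPM in SL2i, against 0.292, 0.155 and 0.428 CPM in SL. Aox3, an aldehyde oxidase, had 40.6 and 37.8 CPM in SL2i, against 0.668, 0.388 and 0.389 CPM in SL. Their SL values were below 1 CPM in every library. Slc4a5, a sodium bicarbonate cotransporter, had 98.5 and 97.4 CPM in SL2i, against 1.67, 1.55 and 1.44 CPM in SL (5.97 ± 0.097), and Myo1a, a brush border myosin, had 25.7 and 22.4 CPM in SL2i, against 0.585, 0.388 and 0.506 CPM in SL (5.59 ± 0.20). Fermt3, kindlin-3 of blood cells, had 23.2 and 18.9 CPM in SL2i, against 0.752, 0.776 and 0.467 CPM in SL (4.97 ± 0.20), and Fam25c had 95.4 and 94.8 CPM in SL2i, against 4.51, 4.54 and 2.88 CPM in SL (4.58 ± 0.090). The paralog of kindlin-3, Fermt1, had no read in SL2i and 27.4, 22.9 and 25.5 CPM in SL, at least 172-fold lower.

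The largest falls included secreted, membrane and neuronal genes. Thbs1, thrombospondin 1, had 0.676 and 0.494 CPM in SL2i, against 231, 219 and 213 CPM in SL (-8.54 ± 0.11). Kif1a, a kinesin of axonal transport, had 0.966 and 0.395 CPM in SL2i, against 193, 199.9 and 200.1 CPM in SL (-8.16 ± 0.11). Sema3e, a guidance ligand, had 0.580 and 0.296 CPM in SL2i, against 109.9, 114 and 115 CPM in SL (-7.98 ± 0.15). Their SL2i values were below 1 CPM in both libraries. Csf1, macrophage colony stimulating factor, had 2 reads in SL2i and 24.8, 24.4 and 25.6 CPM in SL, a ratio 255.4-fold (95% interval 70.6 to 2111) lower. Slc39a8, a zinc and manganese importer, had no read in SL2i, and was at least 136-fold lower. Slc6a14, Tmem54 and Hs6st2 had 1 to 3 reads in SL2i, with ratios 322-fold (95% interval 57.6 to 12722), 298-fold (95% interval 53.5 to 11799) and 188-fold (95% interval 64.2 to 912) lower.

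On a scale per length (RPKM, in which reads are divided by library size and by reference exon length), the largest absolute differences were in highly expressed genes. Cox6b1, a subunit of cytochrome c oxidase, had 719.7 and 630.4 RPKM in SL2i, against 289.7, 289.5 and 303 RPKM in SL. Asns had 486 and 509 RPKM in SL2i, against 202, 206 and 193 RPKM in SL. Both were higher in each SL2i library than in any SL library. In the other direction Tmsb4x, thymosin beta 4, which binds actin monomers, had 72.5 and 65.6 RPKM in SL2i, against 379, 378 and 362 RPKM in SL. Dstn, destrin, which severs actin filaments, had 209 and 206 RPKM in SL2i, against 440.0, 438 and 422 RPKM in SL. Slc2a1 had 82.8 and 83.2 RPKM in SL2i, against 332, 325 and 338 RPKM in SL, and Utf1, a chromatin factor of stem cells, had 68.1 and 79.5 RPKM in SL2i, against 289, 297 and 285 RPKM in SL. Slc25a4, an exchanger of ADP and ATP, had 86.1 and 84.7 RPKM in SL2i, against 229, 232 and 217 RPKM in SL, and Gja1, connexin 43, had 33.7 and 32.9 RPKM in SL2i, against 168, 165 and 167 RPKM in SL.

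Genes that rose more often had promoters with few CG dinucleotides, and genes with few CG also fell more often than those with 10 or more. Among genes averaging 3 log2 CPM or more, 25% of 120 genes with 0 to 4 CG in the 300-base promoter rose 2-fold and 19.2% fell. With 30 or more CG, 4.74% of 1668 genes rose and 15.5% fell. The share that rose was lower in classes with more CG, except between 15 to 19 CG (6.87%) and 20 to 24 CG (7.29%). The share that fell was highest at 5 to 9 CG (22.1%) and lowest at 20 to 24 CG (10.3%). These classes also differ in level, with median levels of 4.99 log2 CPM at 0 to 4 CG and 5.81 log2 CPM at 30 or more, and the part of level in the difference was not tested. Of the genes with the largest changes, 11 that rose and 12 that fell had promoter sequences, with medians of 6 and 15.5 CG.

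**Figure D4:**
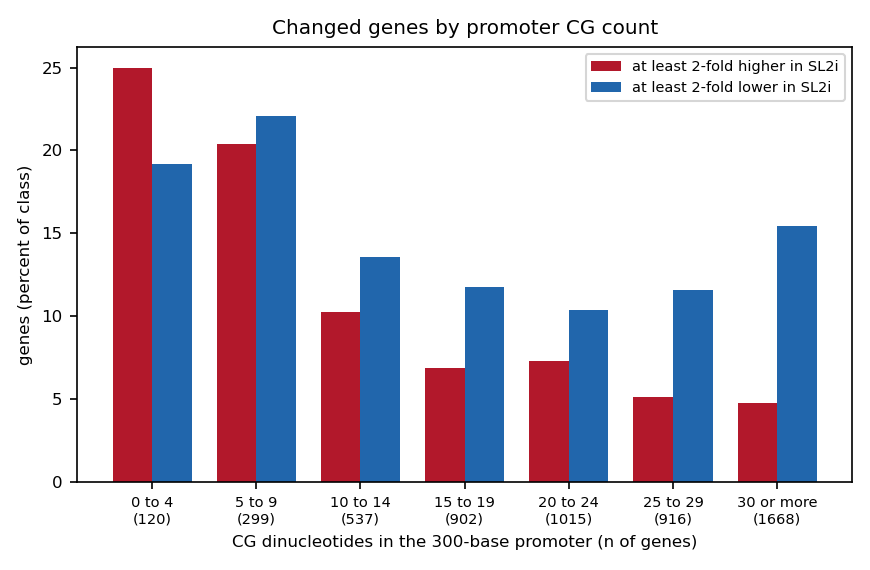
Percent of genes that rose (red) or fell (blue) at least 2-fold in SL2i, by the number of CG dinucleotides in the 300-base promoter, for genes with under 5% shared sequence that average 3 log2 CPM or more; the number of genes is under each class. The share that rose is 25% at 0 to 4 CG and 4.74% at 30 or more. The share that fell is 19.2% at 0 to 4 CG, 22.1% at 5 to 9, 10.3% at 20 to 24 and 15.5% at 30 or more.

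Their ranges overlapped, at 0 to 13 CG for those that rose and 4 to 33 for those that fell, and Slc6a14, Fermt1 and Acta2, which fell, hold 4, 5 and 6 CG. The promoters of 3 genes named above show low, middle and higher counts in letters. Fam25c rose and holds 2 CG, on the minus strand at chr14:34355344-34355643. Slc4a5 rose and holds 6, on the plus strand at chr6:83237125-83237424. Krt7 fell and holds 21, on the plus strand at chr15:101412153-101412452. All are RefSeq sequences of GRCm38.p6 with each CG in capitals.
Fam25c: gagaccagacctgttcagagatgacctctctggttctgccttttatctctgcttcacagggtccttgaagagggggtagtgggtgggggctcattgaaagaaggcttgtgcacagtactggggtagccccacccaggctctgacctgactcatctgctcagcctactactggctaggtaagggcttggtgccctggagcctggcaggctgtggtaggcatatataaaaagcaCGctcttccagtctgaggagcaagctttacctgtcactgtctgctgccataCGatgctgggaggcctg
Slc4a5: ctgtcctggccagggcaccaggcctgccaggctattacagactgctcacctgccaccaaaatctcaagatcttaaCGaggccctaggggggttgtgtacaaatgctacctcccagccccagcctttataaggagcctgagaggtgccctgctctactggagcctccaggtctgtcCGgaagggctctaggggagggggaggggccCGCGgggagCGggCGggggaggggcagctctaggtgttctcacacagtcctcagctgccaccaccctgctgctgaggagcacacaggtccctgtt
Krt7: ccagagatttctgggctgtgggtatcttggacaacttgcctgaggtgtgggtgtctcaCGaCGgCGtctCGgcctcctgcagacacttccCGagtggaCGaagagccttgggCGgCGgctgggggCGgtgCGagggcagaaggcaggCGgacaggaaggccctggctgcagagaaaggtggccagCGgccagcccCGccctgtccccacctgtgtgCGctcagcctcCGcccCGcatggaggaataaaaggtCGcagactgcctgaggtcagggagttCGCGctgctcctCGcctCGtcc
DNA methylation was not measured, and the letters alone do not show which of these promoters is methylated.

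Genes with close copies were kept apart, since reads of a gene and of its copies may be counted for either. Of 5457 genes with at least 5% shared sequence, 2230 rose at an adjusted p under 0.05 (40.9%) and 1674 fell (30.7%), against 33.5% and 42.6% of the genes with less. The 1260 tested genes without a reference sequence included 464 that rose (36.8%) and 184 that fell (14.6%). The 369 tested pseudogenes summed to 3586 and 3578 CPM in SL2i, against 10972, 11042 and 10611 CPM in SL. Parent genes went the other way: in 52 of 60 families the parent gene was higher and its pseudogenes lower in SL2i. Families were kept only if their pseudogenes averaged at least 8 CPM over the 5 libraries, 3 of which were SL. Pseudogenes high in SL alone could pass, such as that of Ndufab1, with 0.833 CPM in SL2i and 13.8 CPM in SL. The filter thus favours pseudogenes that are lower in SL2i, and the count and medians are a description of the families kept. The median log2 ratio was 0.87 for parents, -2.84 for pseudogenes and 0.23 for the sum of both. Rpl17, a protein of the large ribosomal subunit, averaged 150.7 CPM in SL2i and 16.5 CPM in SL, its pseudogenes 12.6 CPM in SL2i and 138.1 CPM in SL, and the sum 163.3 CPM in SL2i and 154.6 CPM in SL. For Rpl30 the sum was 349.5 CPM in SL2i and 334.3 CPM in SL, while Rpl30 alone averaged 269.6 CPM in SL2i and 36.1 CPM in SL. The sums did not balance in all families: in SL2i 8 sums rose and 5 fell by 2-fold or more, and the median size of the log2 ratio was 0.55 for the sums and 0.87 for the parents. Coil had a sum of 198.1 CPM in SL2i and 46.8 CPM in SL, and Rps6 had a sum of 147.9 CPM in SL2i and 875.4 CPM in SL.

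**Figure D5:**
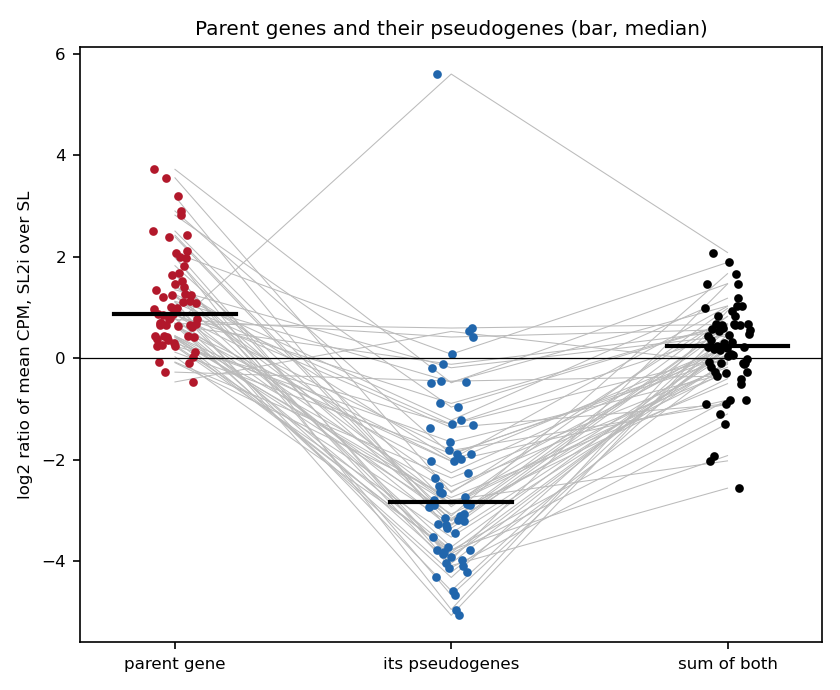
Log2 ratio of mean CPM, SL2i over SL, of 60 parent genes, of the summed pseudogenes of each and of the sum of both. Points are families and bars are medians: 0.87 for parents, -2.84 for pseudogenes and 0.23 for the sum. Families were kept by the mean level of their pseudogenes over all chr8A libraries, which favours pseudogenes that are high in SL.

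Some common reference genes were among the genes with copies that rose, but most of the housekeeping list changed less than 2-fold. Of its 9 members with copies, 1 rose 2-fold and 0 fell, with a median of 0.255. Of its 10 members with little shared sequence, 0 rose and 1 fell 2-fold, with a median of 0.17. Of 81 cytosolic ribosomal protein genes, 80 have copies, and 60 of those were at least 2-fold higher, against 11.6% of the 3426 genes with copies that average 3 log2 CPM or more. Gapdh, often used to normalize expression, was in the list of glucose uptake and glycolysis and not in the housekeeping list, so the housekeeping counts leave it out. Gapdh had 415 and 406 CPM in SL2i, against 24.97, 27.5 and 28.2 CPM in SL (3.93 ± 0.046, 28.2% shared). The cyclophilin gene Ppia had 139.5 and 125 CPM in SL2i, against 10.5, 10.7 and 13.1 CPM in SL (3.53 ± 0.10, 21.1% shared). Among genes averaging 3 log2 CPM or more, the median log2 fold change was -0.02 for 4289 genes that share no sequence with a pseudogene, -0.01 for 3155 that share up to 1%, 0.10 for 1503 that share over 1% to 5%, 0.23 for 811 that share over 5% to 20%, 0.64 for 291 that share over 20% to 50% and 0.55 for 43 that share more. Depth moved with the medium in the same libraries, its part in these differences was not tested, and the labels give no read lengths.

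The medium response of chr8A was set against that of 2 clones of the series labelled SLC16A1, each with libraries in both media. Of the 1252 genes that rose 2-fold in chr8A, 91.9% rose in clone 1 and 92.0% in clone 2 at an adjusted p under 0.05, against 33.7% and 33.4% of all 10461 genes, and 980 (78.3%) were at least 2-fold higher in both clones. Of the 2414 that fell, 1971 (81.7%) were at least 2-fold lower in both. Over all 10461 genes, 12.4% were 2-fold higher in clone 1 and 23.1% lower, with 12.2% higher and 22.7% lower in clone 2. The clone libraries show the same split of depth between media, so these counts do not separate medium from depth. The response of chr8A differed from the mean response of the clones for 2459 of 10461 genes (23.5%), of which 1287 were more positive in chr8A (852 without SL2i replicate 2), and by at least 2-fold for 387 (3.70%). Rhox5 differed by -2.80 on the log2 scale, as it differed little in chr8A and was higher in SL2i in the clones, at 120.4 CPM in SL2i and 22.2 CPM in SL in clone 1, and 141 CPM in SL2i and 24.6 CPM in SL in clone 2. Spry4 fell further in chr8A, with 36.97 CPM in SL2i and 157 CPM in SL in clone 1, and 26.2 CPM in SL2i and 164 CPM in SL in clone 2. Sp5 rose further in chr8A, with 17.9 CPM in SL2i and 6.04 CPM in SL in clone 1, and 17.7 CPM in SL2i and 4.66 CPM in SL in clone 2. Car4 and Krt7, which had no read and 2 reads in SL2i chr8A, were at 0.853 to 1.61 CPM in SL2i and 19.04 to 74.0 CPM in SL, as means of each clone.

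Against this background a set of genes was measured as level. Of 6761 genes with little shared sequence that averaged 3 log2 CPM or more, 1840 (27.2%) had a 95% interval of the fold change within 1.25-fold in either direction. The median standard error of a log2 fold change over these 6761 genes was 0.0675. Tcf7l1 and Cdkn1b, given above, are examples of genes with close values in all 5 libraries.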

How the data were processed

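Poly(A)-selected RNA was sequenced per the labels' protocols, with a stranded kit, 8 PCR cycles and 500 ng of RNA whose RIN was 9.3 or more. Per the submitters' processing notes, the authors used DRAGEN 3.10, featureCounts of Subread and the mouse build GRCm39. The deposited table holds raw counts per gene for 15 libraries, 5 of them of chr8A. Strand and multimapping settings are not given in the sources used here, so reads of overlapping or antisense genes cannot be told apart. Totals per library were 10582011 to 25045069 counts, and intervals and floors cover counting error only, as PCR copies were not marked.

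Counts of all 15 libraries were fitted with edgeR 4.0.16 in R 4.3.3 (filterByExpr, TMM factors, quasi-likelihood F test, 1 mean per group, Benjamini-Hochberg adjustment over all 17178 genes), and the scripts were tested on simulated data. A gene was called at an adjusted p under 0.05, and gene lists were counted with at least 2-fold change added. Among 337 named genes, 331 were called, with adjusted p of at most 0.0312, and the others are printed with theirs. Changes are log2 fold changes, SL2i over SL, ± standard error, and levels are TMM-normalized CPM. Where a group had no read, the ratio to 3 counts over the group is given, and where it had 1 to 3 reads, the ratio of read shares with a 95% exact binomial interval.

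Shared sequence is how many of a gene's words of 30 bases, in percent, are found in another gene of the GENCODE M21 annotation of GRCm38; 92.7% of tested genes were matched. Genes at 5% or more were kept apart and are named with that percent. GRCm38 is an older build than the authors', so it was used for words, lengths, chromosomes and RefSeq promoters (250 bases before to 50 after the start; 78.7% of tested genes under 5% matched), never to place reads. Mitochondrially encoded genes were not analysed here.

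Members and gene lists were chosen with earlier results of these data known. Named genes were the 15 with the largest rise and the 15 with the largest fall in fold change, and the 10 in RPKM in each direction, among called genes averaging 3 log2 CPM or more, with no overlap and a proper symbol. Added were up to 6 members of each list with the largest change, anchor genes of each list, and the 5 largest differences from the clones. Some genes that the rule takes are not reported here. Slc16a1, Sp5, Sfrp1, Fzd7, Fzd10, Fgf10, Hoxb13, Hoxc4, Hoxc9, Hoxc12, Hoxc13, Gli2, Ptch1, Sting1, Dusp9, Etv4, Etv5, Tcf7l1, Ctnnb1, Gsk3b, Zscan4a and the parent genes with pseudogenes fall outside it or were added after their values were seen. Alternatives were RLE factors, DESeq2 1.42.0, no filter, at least 1 CPM in 2 libraries, a replicate block, only the chr8A libraries, equal depth, a test against 2-fold, other limits of shared sequence, and each library left out.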

Additional observations from a re-analysis of the deposited data

Results flagged for a closer look

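The response to SL2i in chr8A was set against the mean response of the SLC16A1 clones, at an adjusted p under 0.05 (edgeR interaction). Of the 337 named genes 175 differed, and 5 of these, with no or few reads in a chr8A group, were set apart. Of the rest, 31 differed by at least 2-fold. Few reads in a clone group were not a reason to set a gene apart, so Gap43 is among the 31. The named genes were chosen in part for large differences from the clones and for large changes in chr8A, and some have copies, so this count is a description and is not set against the share over all genes. A further 139 differed by less than 2-fold. Among the 5 set apart were Car4 (-7.29), with no read in SL2i chr8A, and Csf1 (-2.78), with 2. Values are the chr8A response minus that of the clones on the log2 scale, and no explanation was tested.

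Genes more negative in chr8A included Rhox5 (-2.80) and the ERK genes Spry4 (-2.68), Dusp4 (-1.59), Phlda1 (-1.56), Etv4 (-1.48) and Dusp6 (-1.11). The keratins Krt18 (-2.59), Krt19 (-2.003) and Krt8 (-1.35) were also more negative, as were Dab2 (-2.33), the matrix gene Thbs1 (-2.16), Id3 (-1.77), Bmp4 (-1.09) and Gpc4 (-1.35). The imprinted genes Peg10 (-1.60) and Cdkn1c (-1.29), the cofactor gene Dnmt3l (-1.02), Gpx3 (-1.38), Slc43a2 (-1.12), H2-Eb1 (-1.36) and Xaf1 (-1.08) followed.

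More positive in chr8A were Gap43 (3.20), Hoxb13 (1.99), Myo1a (1.85), Sp5 (1.53), Lefty1 (1.53), Nes (1.49), Erap1 (1.42), Fgf17 (1.18), Cdh2 (1.17) and Oas1a (1.10). Gap43, a protein of nerve growth cones, had 0.483 and 0.790 CPM in SL2i, against 24.97, 22.7 and 22.1 CPM in SL in chr8A, with 0.146 CPM in SL2i and 30.3 CPM in SL in clone 1, and 0.0480 CPM in SL2i and 32.4 CPM in SL in clone 2. The clone libraries in SL2i were near the floor, at 0 to 0.293 CPM in clone 1 and 0 to 0.0960 CPM in clone 2. The difference for Gap43 (3.20 ± 0.78) thus rests on few clone reads. Hoxb13 had 1.94 CPM in SL2i and 0.199 CPM in SL in clone 1, and 1.90 CPM in SL2i and 0.301 CPM in SL in clone 2. Dnmt3l had 306 CPM in SL2i and 412 CPM in SL in clone 1, and 297 CPM in SL2i and 442 CPM in SL in clone 2. The clone libraries in SL2i number 2 each, and no group of chr8A is large enough to be searched for libraries that stand apart.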

How the results depend on the processing

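Of named genes, 4 that did not pass the test changed direction, none of them past the threshold where the direction changed. Cdkn1b was -0.0345 with no filter, -0.00145 at equal depth and -0.0154 to 0.0358 with 1 library left out. Hk2 was -0.00640 with no filter and -0.0330 to 0.102 with 1 library left out, lowest without SL2i replicate 2. Socs3 was -0.00289 with no filter. Tcf7l1 was 0.00373 with a replicate block and -0.107 to 0.0551 with 1 library left out. Genes that differed in response from the clones, with a more positive response in chr8A, numbered 852 to 1170 with 1 chr8A library left out, the lowest without SL2i replicate 2, against 1287 with all. Over the same libraries, genes that rose numbered 3100 to 3360 and genes that fell 4128 to 4458. A limit of 1% on shared sequence, which admits fewer genes, gave 2158 genes that rose, against 3500. A limit of 50%, which admits more, gave 5409, of which 1907 by 2-fold, against 1252. At 50% the genes that fell 2-fold numbered 3083, against 2414, and the part of gene number in these shifts was not tested. Replicate numbers did not pair the samples (correlations of deviations -0.008 and 0.013), and with a replicate block 1260 genes rose and 2383 fell by 2-fold. Equal depth gave 1125 and 2208, and a test against 2-fold 937 and 1892. Of named genes, 98 did not pass the test against 2-fold; the other losses were Pdgfra (DESeq2, equal depth, no filter, and without any of 3 libraries), Ctsd, Fasn, Lamp1, Txnip, Rara, Rxra, Olig2, Bmp4, Cdh2, Gsk3b and Rhox5. Pdgfra was 0.65 without SL2i replicate 2, against 1.03 with all. The test against 2-fold moved 9 of 84 list counts by over 1.5 times. Genes that rose numbered 1 of the BMP list (against 3), 2 of the Notch, Hippo and hedgehog list (against 4), 2 neural (against 4), 1 of the G1 list (against 3), 0 p53 targets (against 1), 1 of the MHC list (against 2) and 3 interferon genes (against 5), and genes that fell numbered 1 histone enzyme (against 2) and 3 of the mesoderm list (against 6). Interferon genes that rose also numbered 3 at equal depth. Without SL2i replicate 1, 1 histone enzyme fell 2-fold and 1 fibroblast marker rose, against 2 of each with all libraries. A gene at 0 reads in SL2i allows 3 reads over both.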
